A study of Mus musculus with 6 samples.

Results

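The genes described here are 36 genes of the G2 and M phases of the cell cycle: the mitotic cyclins, kinases, checkpoint, kinetochore and spindle genes. They were taken by name from a list, with no threshold on a measured value, and all 36 were found among the 17464 gene symbols deposited for each library. The tissue was the mammary gland of wild-type C57BL/6 mice at postnatal day 45, with 3 untreated samples and 3 given recombinant mouse CXCL14, a chemokine. All 6 samples share this genotype and age, and for the treatment neither dose, route nor duration is given in the sources used here. The title of the series names endothelial cells, but each sample is labelled as mammary gland. Nothing in the labels says that a group's samples are separate animals, so the p-values below reflect the variation of these samples alone, part of which may be technical.

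A dividing cell enters mitosis when Cdk1 pairs with cyclin B, and it leaves mitosis when the anaphase-promoting complex (APC/C), with its activator Cdc20, marks cyclin B and securin for destruction. In between, Aurora and Polo kinases build the spindle, kinetochores tie chromosomes to it, and a checkpoint built on Mad2 and BubR1 holds Cdc20 back until every chromosome is attached. The genes of this programme are transcribed late in the cycle. The DREAM complex silences them in resting cells, and the MMB complex and FOXM1 switch them on in cycling cells, acting at a promoter element called the cell cycle genes homology region (CHR) and often beside CCAAT boxes, which bind NF-Y. In the gland at this age, ducts are still growing, and germinal centres of lymphoid tissue also hold many dividing cells.

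Promoters are printed for 6 members because they show how these elements are laid out. They belong to Cdc20, Top2a and Ccnb1, the members with the smallest p between the groups, to Ccnb2, which carries evenly spaced CCAAT boxes, to Cks2, the most abundant member, and to Ndc80, a member with a negative fold change. Each line gives the 120 bases before the start of the gene, 5′ to 3′ on the strand of the gene. Sequences and positions are from RefSeq promoters of the mouse assembly GRCm38.p6, matched by symbol, and not from the build mm8 that the submitters name. Capitals mark CHR letters, TTTGAA or TTTAAA on either strand, and the CCAAT box on either strand, where the reverse complement of TTTGAA reads TTCAAA and that of CCAAT reads ATTGG.
Cdc20, chr4:118437344-118437463, minus strand: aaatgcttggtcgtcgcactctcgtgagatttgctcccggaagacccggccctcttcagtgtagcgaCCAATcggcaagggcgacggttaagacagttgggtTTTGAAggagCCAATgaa
Top2a, chr11:99024190-99024309, minus strand: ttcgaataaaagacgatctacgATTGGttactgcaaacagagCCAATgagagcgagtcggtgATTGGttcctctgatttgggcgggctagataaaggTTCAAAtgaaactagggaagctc
Ccnb1, chr13:100786487-100786606, minus strand: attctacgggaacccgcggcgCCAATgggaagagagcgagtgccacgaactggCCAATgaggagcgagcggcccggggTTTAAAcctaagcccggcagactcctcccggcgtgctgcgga
Ccnb2, chr9:70421555-70421674, minus strand: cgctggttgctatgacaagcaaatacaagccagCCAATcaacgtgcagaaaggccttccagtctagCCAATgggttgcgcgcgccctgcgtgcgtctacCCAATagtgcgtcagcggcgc
Cks2, chr13:51645112-51645231, plus strand: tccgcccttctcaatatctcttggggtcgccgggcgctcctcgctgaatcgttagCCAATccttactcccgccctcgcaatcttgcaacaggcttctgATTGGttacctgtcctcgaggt
Ndc80, chr17:71526858-71526977, minus strand: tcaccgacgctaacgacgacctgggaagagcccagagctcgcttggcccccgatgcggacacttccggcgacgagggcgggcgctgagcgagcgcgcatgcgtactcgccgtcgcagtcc

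In these windows the CHR letters of Cdc20 begin 18 bases before the start, between CCAAT boxes at 53 and 8 bases. Ccnb1 has its CHR letters 42 bases before the start and CCAAT boxes at 99 and 67 bases. Ccnb2 has CCAAT boxes at 87, 54 and 21 bases, each 33 bases from the next, and its CHR letters lie outside the printed stretch. The printed window of Ndc80 holds neither set of letters, and its CHR letters begin 23 and 30 bases after the start.

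The letters were searched in 250 bases before and 50 after the start. Of the 36 genes, 31 matched, with 32 promoters, and no sequence is shown for Ccna2, Foxm1, Aurkb, Kif20a and Tpx2. CHR letters were in 27 of the 32 promoters (84.4%), against 19.4% of 11755 promoters of the genes tested and 27.6% of all 32851 promoters of the table. A CCAAT box was in 26 (81.2%), against 37.2% and 37.4%. Both were in 24 (75.0%), against 7.41% and 10.7%. At least 2 CCAAT boxes were in 18 (56.2%), against 13.9% of promoters of the genes tested.

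Successive CCAAT boxes lay 31 to 34 bases apart in 9 of the 32 promoters (28.1%), against 1.79% of promoters of the genes tested. The genes were Aurka, Ccnb1, Ccnb2, Cdca3, Cdca8, Cdk1, Hmmr, Spc25 and Ube2c. That spacing was chosen after the positions were seen. Among 85 promoters of other mitosis genes 56.5% held CHR letters, and among 53 promoters of DNA replication and G1/S genes 28.3% did. In the same order, a CCAAT box was in 64.7% and 56.6%, and the spacing of 31 to 34 bases in 7.06% and 3.77%. At least 2 CCAAT boxes were in 34% of each. For all these traits, and for both sets of letters together, the 2 lists lay between the members and the genes tested. Nusap1, Mad2l1 and Nuf2 held neither set of letters. A match is a run of letters and no measure of binding.

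**Figure D1:**
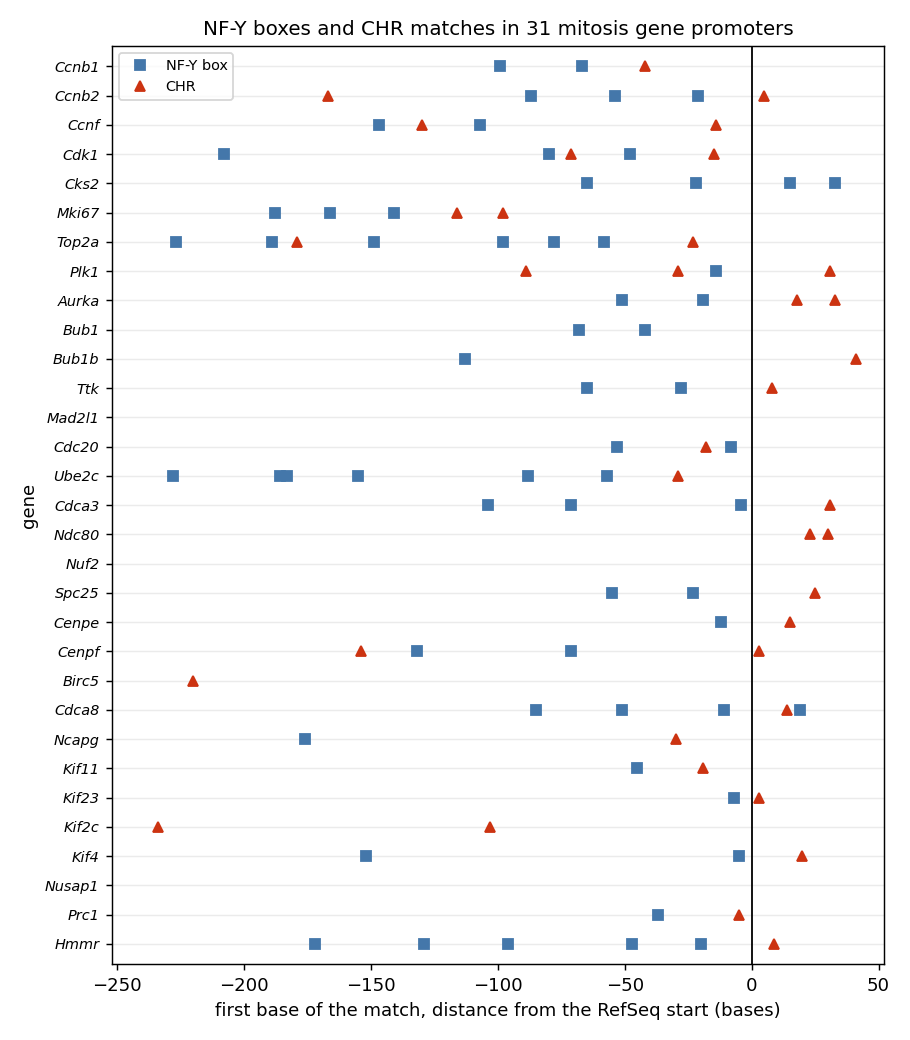
Distance from the gene's start (x axis, in bases, negative before the start) of the first base of the CHR letters and of the CCAAT boxes (labelled NF-Y box) in the RefSeq promoters of 31 members, 1 row per gene. Most CHR letters lie close to the start, with 23 of the 26 genes that have them showing 1 within 50 bases of it, and CCAAT boxes lie mainly before it.

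Depth was similar in all libraries. FPKM scales the fragments of a gene by its length and by the total of the library. The deposited values keep the steps of whole reads, which gave between 14959734 and 16681504 reads on the listed genes per library, with 11030 to 11652 genes at 1 FPKM or more. Luminal epithelial markers, the label's tissue, were present, with a summed FPKM between 130 and 387 in the untreated and 300 and 836 in the CXCL14 libraries, but 9 B-cell markers summed to between 1320 and 1590 over all 6. CXCL14 replicate 1 stood apart from the other CXCL14 libraries. Its mean chi-square per gene against untreated replicate 1 was 2.40 over the genes tested, where counting noise alone gives a value near 1, against 25.6 to 99.0 for the remaining 14 pairs. Both stay in their labelled groups, and the main results are repeated without CXCL14 replicate 1.

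The mitosis genes were weakly expressed. The median level of the members was above that of 17.3% of the genes tested, and 9 of the 36 had under 50 reads in at least 1 library, where the counting error (1 SD) was 14.3% to 22.9%. Cks2 was the most abundant at a mean of 27.5 FPKM over the 6 libraries, followed by Mad2l1 at 8.70 and Top2a at 8.36, and Cenpf was the lowest at 0.435. The order of these last 2 depended on the group: Mad2l1 was above Top2a in all 3 untreated libraries and below it in all 3 CXCL14 libraries. A gene was tested when 3 or more libraries reached 1 FPKM, which kept 30 of the 36 and left out Ttk, Cenpe, Cenpf, Kif2c, Kif4 and Hmmr. Every tested member reached 1 FPKM in at least 1 untreated library, and 28 of the 30 did so in every untreated library. Bub1, at 1.00, 0.750 and 0.593 FPKM untreated, and Ncapg, at 1.58, 1.06 and 0.696 FPKM, passed only with their CXCL14 values. Both are among the members with a positive fold change below.

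Most mitosis genes were measured a little higher with CXCL14, and none passed the test. Of the 30 tested members 27 had a positive log2 fold change, against 37.2% of the 11516 genes tested, and their median was 0.24 against -0.06 over all genes tested. With median-ratio scaling, which moved the median of all genes tested to 0.01, 28 of 30 were positive, against 52.1%. Limma-trend with Benjamini-Hochberg adjustment called 0 members, and 0 of all genes (0% called, higher or lower), with a smallest adjusted p of 0.573. At an unadjusted p under 0.05, 8 members were higher (26.7%, against 3.41% of genes tested) and 0 were lower (against 4.36%). All 3 CXCL14 libraries lay above all 3 untreated ones in 10 members (33.3%, against 4.74%), and below in 0 (against 8.36%). Of all 36 members, untested ones included, 31 had a higher mean FPKM with CXCL14, against 58 of 94 other mitosis genes and 39 of 59 DNA replication and G1/S genes. For this count no share over all genes was computed. The shares above describe the list: the genes vary together and are not independent of each other. In bulk tissue more RNA per cell cannot be told apart from more dividing cells. Fold changes are on the log2(FPKM + 1) scale, which understates the change of low genes.

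**Figure D2:**
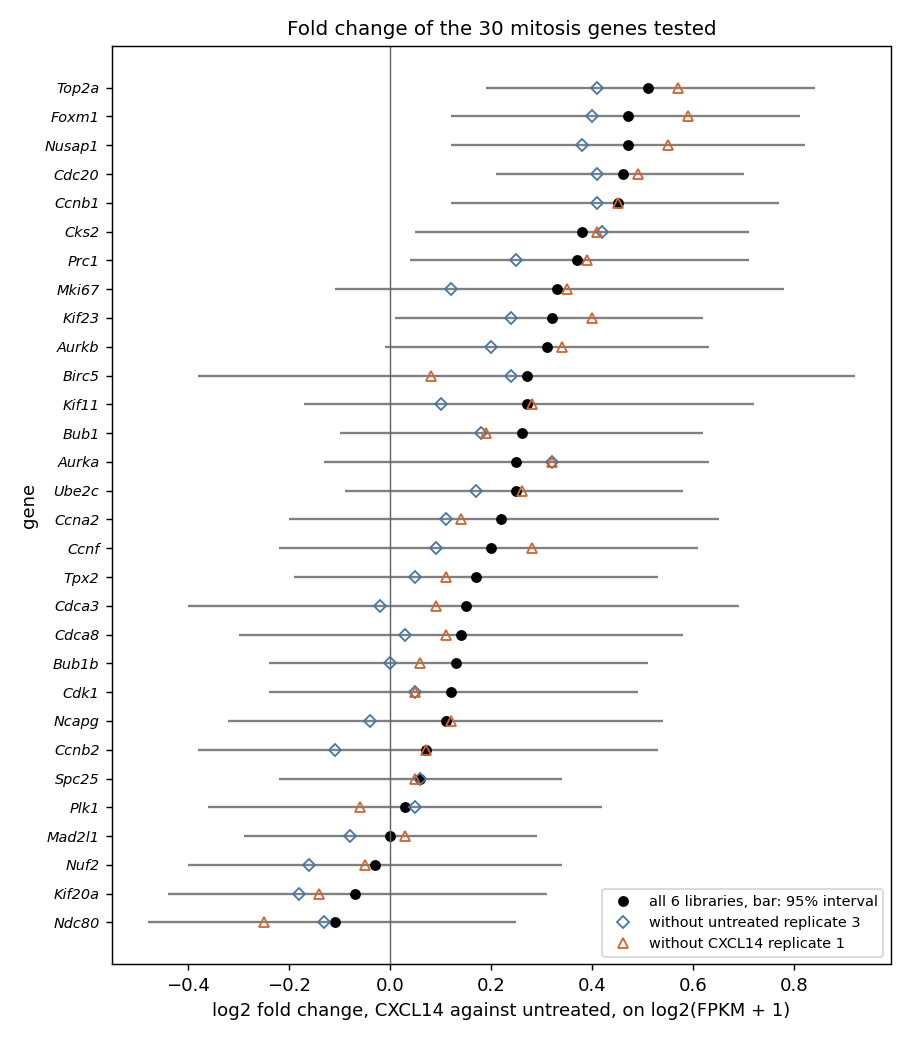
Log2 fold change on the log2(FPKM + 1) scale of each tested member, CXCL14 against untreated, in order of size, with 95% confidence intervals from limma-trend over all 6 libraries and open symbols for the fits without untreated replicate 3 and without CXCL14 replicate 1. The estimates run from -0.11 for Ndc80 to 0.51 for Top2a, and most of the estimates without untreated replicate 3 lie to the left of those of all 6 libraries.

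**Figure D3:**
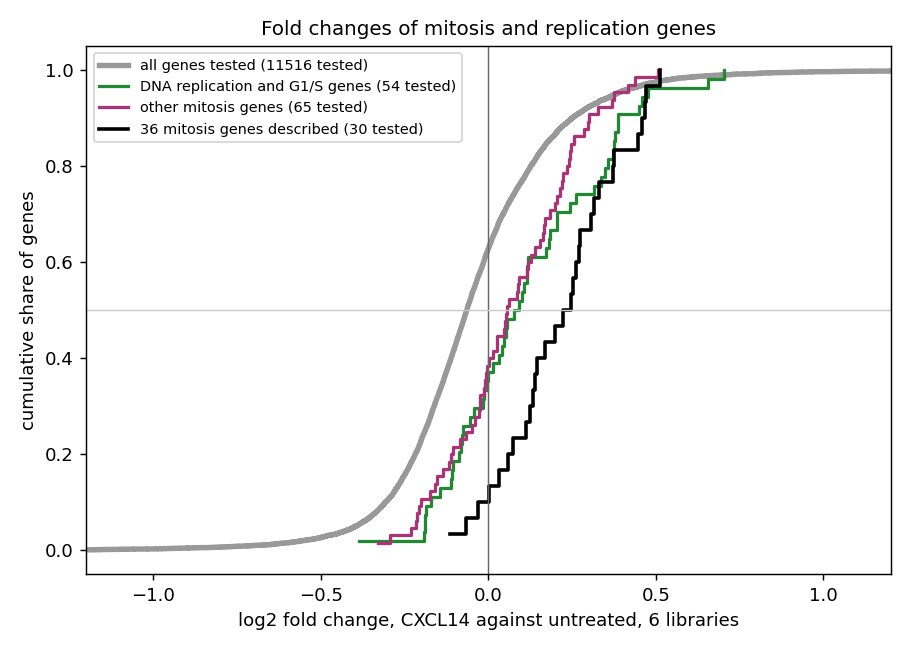
Cumulative share of genes (y axis) by log2 fold change, CXCL14 against untreated (x axis), for the 11516 genes tested, the 30 tested members, 65 other mitosis genes and 54 DNA replication and G1/S genes. The curve of the members lies farthest right, with a median of 0.24 against -0.06 for the genes tested, 0.06 for other mitosis genes and 0.08 for the replication genes.

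Among the cyclins and the Cdk1 kinase with its partner Cks2, all 6 tested fold changes were positive, with a median of 0.21. Ccnb1, cyclin B1, the activator of Cdk1 at entry into mitosis, measured 1.36, 1.49 and 1.24 FPKM without CXCL14, given here and below in the order of the replicate numbers, and 2.22, 1.86 and 2.62 FPKM with it. Every CXCL14 library lay above every untreated one, and the log2 fold change was 0.45 (SE 0.14, limma-trend unadjusted p = 0.0147, adjusted p = 0.573). Between 48 and 104 reads stood behind these values. Cks2, a small protein that binds Cdk1, was at 27.3, 19.4 and 25.1 FPKM without and at 29.5, 33.2 and 30.6 FPKM with CXCL14. Its groups did not overlap either, and its log2 fold change was 0.38 (SE 0.14, limma-trend adjusted p = 0.573).

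Ccnb2, cyclin B2, was at 4.78, 3.72 and 2.56 FPKM without and at 3.83, 3.46 and 4.25 FPKM with CXCL14, so the groups overlapped, and its highest and lowest values were both untreated. Its log2 fold change was 0.07 (SE 0.19), and whether it differs from that of Ccnb1 was not tested. Cdk1 itself measured 1.61 ± 0.249 FPKM with and 1.40 ± 0.326 without CXCL14 (SD, n = 3 each), and the log2 fold change was 0.12 (SE 0.15). Ccna2, cyclin A2, and Ccnf, a cyclin that is the receptor subunit of a ubiquitin ligase, had log2 fold changes of 0.22 and 0.20, both with overlapping groups.

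The 3 transcription and proliferation genes gave the highest median of any role, 0.47, and in all 3 the groups were apart. Top2a, the topoisomerase that untangles chromosomes, was at 8.04, 6.54 and 5.63 FPKM without and at 9.16, 10.4 and 10.4 FPKM with CXCL14. The log2 fold change was 0.51 (SE 0.14, limma-trend unadjusted p = 0.00762, adjusted p = 0.573), the largest of the 30 on the log2(FPKM + 1) scale. Median-ratio scaling kept Top2a first, at 0.59. With a pseudocount of 0.1 in place of 1, Top2a was at 0.57, below Ccnb1 at 0.66 and Nusap1 at 0.65. Ccnb1 and Nusap1 were also above Top2a with voom, the alternative test on reads. Foxm1, the transcription factor that switches on many of these genes, was at 3.82, 3.45 and 3.04 FPKM without and at 4.15, 5.69 and 5.62 FPKM with CXCL14. CXCL14 replicate 1 lay close to the untreated libraries and the other two CXCL14 libraries well above them, and the log2 fold change was 0.47 (SE 0.14). Mki67, the Ki-67 protein that coats mitotic chromosomes, was at 6.43, 5.89 and 3.66 FPKM without and at 6.62, 6.46 and 7.33 FPKM with CXCL14. Its lowest CXCL14 value was just above its highest untreated value, and its log2 fold change of 0.33 had an SE of 0.19. Without untreated replicate 3, its lowest library, the log2 fold change was 0.12.

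Mitotic kinases had 5 positive fold changes among 5 tested, with a median of 0.25, and none had an unadjusted p under 0.05. Aurkb, the kinase of the chromosomal passenger complex, was at 2.75, 2.40 and 1.88 FPKM without and at 2.93, 3.24 and 3.16 FPKM with CXCL14. These groups did not overlap (log2 fold change 0.31, SE 0.13). Aurka, the kinase of spindle poles, was at 4.20, 3.71 and 4.73 FPKM without and at 4.60, 6.58 and 4.57 FPKM with CXCL14, so that 1 CXCL14 library alone stood above the untreated ones by more than their range. Plk1, the Polo kinase that acts at several steps of mitosis, was at 2.53, 1.74 and 2.19 FPKM without and at 2.64, 1.73 and 2.32 FPKM with CXCL14, and its log2 fold change of 0.03 had an interval from -0.36 to 0.42. The log2 fold change was 0.26 (SE 0.15) for the checkpoint kinase Bub1 and 0.13 (SE 0.16) for Bub1b, which encodes BubR1. Ttk, the kinase Mps1, was too low to be tested, at 0.531 ± 0.179 FPKM without and 0.543 ± 0.125 FPKM with CXCL14 (SD, n = 3 each).

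The 4 genes of the APC/C and the checkpoint had log2 fold changes from 0.00 to 0.46, and differences between genes were not tested. Cdc20, the activator of the APC/C, was at 4.73, 4.38 and 4.06 FPKM without and at 6.01, 6.39 and 6.78 FPKM with CXCL14. The gap between its groups was wider than the range of either, and its unadjusted p was the smallest of the 30 members (log2 fold change 0.46, SE 0.10, limma-trend unadjusted p = 0.00324, adjusted p = 0.573). Between 120 and 207 reads were behind each value. Mad2l1, which encodes Mad2, the checkpoint protein that holds Cdc20, was at 9.83, 8.68 and 7.60 FPKM without and at 8.32, 9.55 and 8.19 FPKM with CXCL14. Its groups overlapped throughout, and its log2 fold change of 0.00 had an interval from -0.29 to 0.29. The log2 fold change of Ube2c, an enzyme that works with the APC/C, was 0.25 (SE 0.14), with untreated replicate 1 at 7.50 FPKM above the CXCL14 libraries at 7.11 to 7.42 FPKM. That of Cdca3, a trigger of mitotic entry, was 0.15 (SE 0.23).

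Kinetochore genes were the role with the lowest median, -0.03, and 1 of the 3 tested was positive. Ndc80, a subunit of the complex that holds spindle microtubules, was at 4.20, 3.82 and 3.86 FPKM without and at 4.49, 3.61 and 2.79 FPKM with CXCL14. The CXCL14 libraries spanned both the highest and the lowest value of the 6 (log2 fold change -0.11, SE 0.15). Nuf2 and Spc25, which sit in the same complex, had log2 fold changes of -0.03 (SE 0.16) and 0.06 (SE 0.12). Cenpe, a kinetochore motor, and Cenpf, a large kinetochore protein, were not tested and measured 1.04 ± 0.250 and 0.448 ± 0.0452 FPKM with CXCL14, against 1.04 ± 0.270 and 0.423 ± 0.118 FPKM without (SD, n = 3 each).

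Of the passenger complex and condensin genes, Birc5, which encodes survivin, was spread widely in both groups, at 7.06, 3.42 and 4.55 FPKM without and at 8.13, 6.05 and 4.39 FPKM with CXCL14. Its log2 fold change of 0.27 had an SE of equal size, 0.27. The log2 fold change was 0.14 (SE 0.19) for Cdca8, which encodes borealin, and 0.11 (SE 0.18) for Ncapg, a condensin subunit.

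The median log2 fold change was 0.37 over the 3 tested spindle microtubule proteins and 0.27 over the 3 tested kinesin motors. Nusap1, which bundles microtubules near chromosomes, was at 2.04, 1.90 and 1.45 FPKM without and at 2.49, 3.38 and 2.78 FPKM with CXCL14. The groups were apart, and the log2 fold change was 0.47 (SE 0.15, limma-trend unadjusted p = 0.0157). Prc1, which crosslinks microtubules of the central spindle, was at 2.43, 2.55 and 1.70 FPKM without and at 3.04, 3.07 and 3.32 FPKM with CXCL14, also apart, with a log2 fold change of 0.37 (SE 0.14). Kif23, the central spindle motor of cytokinesis, was at 5.53, 4.96 and 4.28 FPKM without and at 5.58, 6.71 and 6.82 FPKM with CXCL14, where CXCL14 replicate 1 exceeded untreated replicate 1 by less than the counting error of either. Its log2 fold change was 0.32 (SE 0.13). Log2 fold changes were -0.07 (SE 0.16) for Kif20a, another motor of the central spindle, 0.27 (SE 0.19) for Kif11, the motor that separates spindle poles, and 0.17 (SE 0.15) for Tpx2, which activates Aurora A. Of the untested genes, Kif4, a chromosome motor, had 0.787 ± 0.0390 FPKM with and 0.610 ± 0.142 FPKM without CXCL14 (SD, n = 3 each), its groups apart, while Kif2c, a microtubule depolymerase, and Hmmr, a spindle protein, overlapped.

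**Figure D4:**
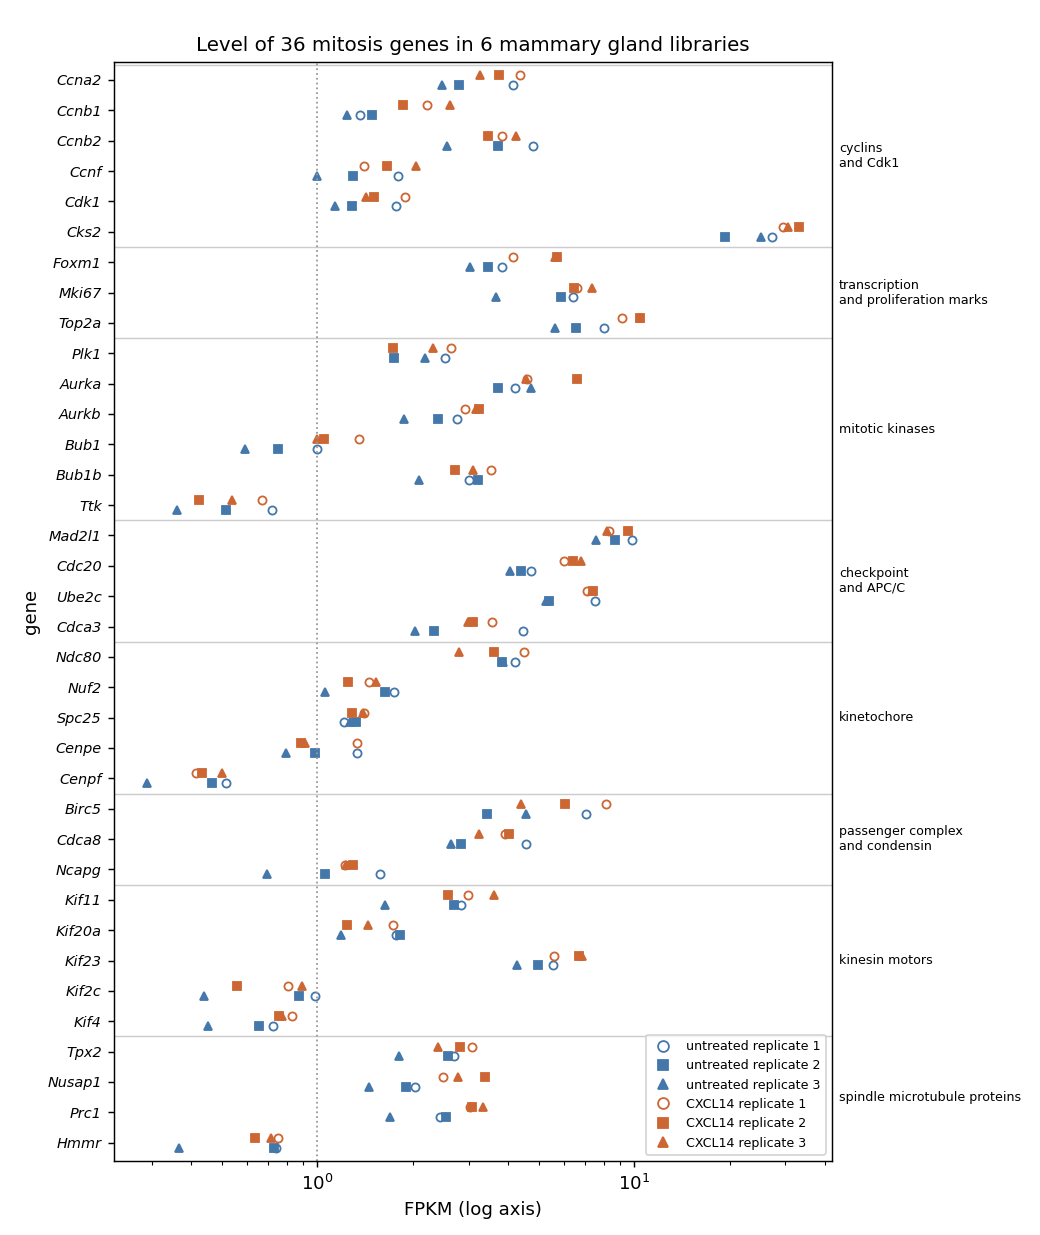
FPKM (log axis) of the members in each of the 6 libraries, with untreated and CXCL14 libraries in different colours and members grouped by role. Cks2 stands highest, between 19.4 and 33.2 FPKM, and Cenpf lowest, between 0.290 and 0.515 FPKM.

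In the summed level of these genes, the untreated libraries differed among themselves more than the CXCL14 libraries did. Reads on the 36 members came to 395, 334 and 270 in each 1000000 reads in the untreated libraries, and to 412, 415 and 422 in the CXCL14 libraries. The mean was 333 ± 62.4 without and 416 ± 5.21 with CXCL14 (SD, n = 3 each), so the CXCL14 libraries were nearly equal and the untreated ones were not. Untreated replicate 3 was the lowest library for 30 of the 36 members. Among the 30 tested it was the lowest for 24 (80.0%), against 15.9% of the genes tested, 35.4% of 65 other mitosis genes and 35.2% of 54 DNA replication and G1/S genes. The SD of the untreated libraries exceeded that of the CXCL14 libraries in 20 of the 30 tested members, against 38.8% of the genes tested.

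Without untreated replicate 3 the median log2 fold change of the members dropped to 0.10, from 0.24, and 4 members were higher at an unadjusted p under 0.05 (13.3%, against 1.76% of genes tested). Without CXCL14 replicate 1 it was 0.16, and without untreated replicate 1 it was 0.36. The count of 8 members at that unadjusted p was 3 without CXCL14 replicate 2 (10%, against 0.677% of genes tested), and also 3 without CXCL14 replicate 3 (10%, against 1.04%). The members also varied together across libraries: the Pearson correlation of a member with the mean of the other members had a median of 0.80 over the 6 libraries, from -0.10 for Ndc80 to 0.95 for Aurkb, and exceeded 0.5 for 24 of 30. All 6 points share the libraries and the FPKM scaling, so this is a description.

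**Figure D5:**
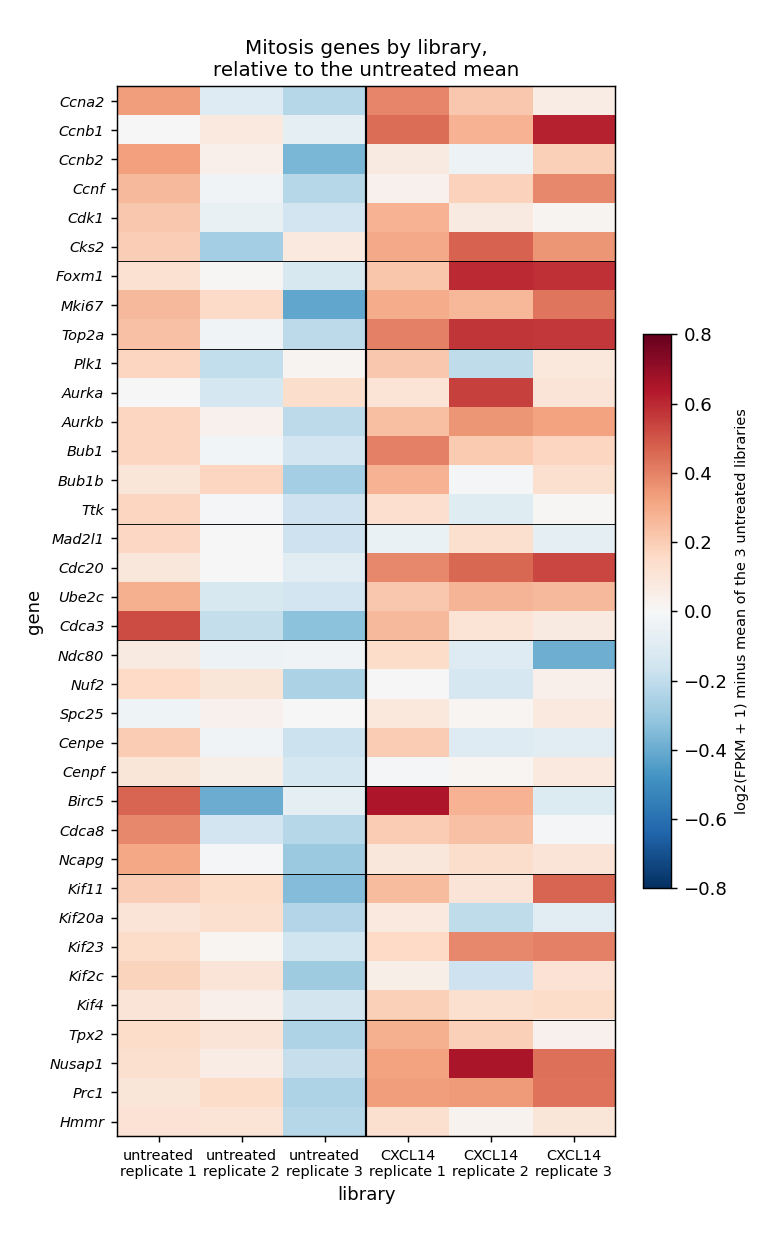
Colour gives log2(FPKM + 1) of each member in each library minus that member's mean over the 3 untreated libraries, with members in rows by role and libraries in columns. Untreated replicate 3 is the lowest column for 30 of 36 members.

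CXCL14 replicate 1 was closest to untreated replicate 1 over the mitosis genes, as it was over all genes. On the 30 tested members, the mean chi-square per gene was 1.78 between untreated replicate 1 and CXCL14 replicate 1, and 3.20, 3.75 and 2.52 among the 3 CXCL14 pairs. Untreated replicate 1 was at 4.55 from untreated replicate 2, and at 5.10 and 5.83 from CXCL14 replicates 2 and 3, not far above the CXCL14 pairs. Untreated replicate 3 lay at 16.7 to 22.8 from the CXCL14 libraries. CXCL14 replicate 1 was higher than untreated replicate 1 in 24 of the 36 members, with a median log2 ratio of 0.07 over those tested. The share over all genes was not computed for this pair.

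A fit that omits CXCL14 replicate 1 called 249 genes higher (2.16%) and 348 lower (3.02%), or 231 higher and 65 lower with median-ratio scaling. Of the members it called 1, Foxm1, at the edge of the threshold (log2 fold change 0.59, SE 0.11, limma-trend adjusted p = 0.0495). With voom on the recovered reads in the same libraries, Foxm1 was not called (adjusted p = 0.0501), and with median-ratio scaling it was (adjusted p = 0.0395). Cdc20 missed the threshold (0.49, SE 0.10, limma-trend adjusted p = 0.0542). In that fit 26 members were positive (against 36.7% of genes tested), and 7 were higher at an unadjusted p under 0.05 (against 8.54%), with 0 lower (against 20.8%). Groups were apart and higher in 10 members (33.3%, against 13.4% of genes tested) and apart and lower in 1, Ndc80 (3.33%, against 34.9%). Without both libraries numbered 1, 0 members were called (0.122% of genes higher, 0.00868% lower), the median was 0.32, and 28 were positive (against 36.6%). At an unadjusted p under 0.05, 8 were higher (against 6.36%) and 0 lower (against 12.7%). Groups were apart and higher in 18 members (60%, against 15.5%) and lower in 1, Ndc80 (against 37.1%). Without both libraries numbered 2 the median was 0.18. There 2 of 30 members had a limma-trend unadjusted p under 0.05, against 43 of 11516 genes tested. Without both libraries numbered 3 the median was 0.11, and 0 of 30 members had such a p, against 71 of 11516 genes tested. Omitting a treated library that lies near a control can raise the number of calls over all genes. With untreated replicate 1 omitted instead of CXCL14 replicate 1, 0 genes were called. The cause of this difference was not tested.

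Other genes of the cell cycle had medians nearer to 0. Of 94 other mitosis genes 65 were tested and 40 were positive (61.5%, against 37.2% of genes tested), with a median of 0.06 and 0 called. At a limma-trend unadjusted p under 0.05, 5 were higher (against 3.41%) and 2 lower (against 4.36%). Groups were apart and higher in 8 (against 4.74%) and lower in 3 (against 8.36%). With median-ratio scaling 49 were positive (75.4%, against 52.1%), with a median of 0.13, against 0.30 for the members. The 3 with the smallest p were Cenpn, a centromere protein (log2 fold change 0.38, SE 0.11), Spag5, the spindle protein astrin (0.51, SE 0.17), and Ckap2 (0.37, SE 0.13), all with groups apart. Without CXCL14 replicate 1, Lmnb1, a lamin of the nuclear envelope, was the 1 called member of that list, at 0.57 (SE 0.09, limma-trend adjusted p = 0.0424).

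DNA replication and G1/S genes were positive in 34 of 54 tested (63.0%, against 37.2% of genes tested), with a median of 0.08. At a limma-trend unadjusted p under 0.05, 7 were higher (against 3.41%) and 1 lower (against 4.36%). Groups were apart and higher in 10 (against 4.74%) and lower in 3 (against 8.36%). With median-ratio scaling 41 were positive (75.9%, against 52.1%), with a median of 0.16. Dtl, which marks the licensing factor Cdt1 for destruction, was at 1.72, 1.78 and 2.21 FPKM without and at 2.36, 4.49 and 4.69 FPKM with CXCL14 (log2 fold change 0.70, SE 0.22). Cdt1 itself had 0.39 (SE 0.14) and Orc1, of the origin recognition complex, 0.66 (SE 0.24), and 0 of the 54 were called. Dtl and Orc1 were called higher without CXCL14 replicate 1. The differences in median between these lists and the mitosis genes were not tested.

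The lists of DREAM and MMB complex genes, APC/C genes and G1 genes had mostly negative fold changes, as did the genes tested as a whole. Foxm1, a regulator counted among the members, had a log2 fold change of 0.47. Of 12 DREAM and MMB complex genes 3 were positive (25.0%, against 37.2% of genes tested), with a median of -0.09, and Rbl2, the pocket protein p130, had -0.27 (SE 0.11). Of 15 APC/C genes 4 were positive (26.7%), with a median of -0.12, and Anapc16 had -0.43 (SE 0.16). Of 15 tested G1 cyclins, kinases and inhibitors 4 were positive (26.7%), with a median of -0.10, and Ccng1, a target of p53, had -0.45 (SE 0.17). With median-ratio scaling 6 of 12, 6 of 15 and 7 of 15 were positive, against 52.1% of genes tested. None was called with all libraries, and without CXCL14 replicate 1 Anapc16, Ccng1 and Ccnd2, cyclin D2, fell, with log2 fold changes of -0.59, -0.65 and -0.42. None of these 3 was called lower in that fit with median-ratio scaling, which moved the median of the genes tested from -0.10 to 0.01. With voom in the same libraries Ccng1 (adjusted p = 0.0331) and Ccnd2 (adjusted p = 0.0472) were called lower, and Anapc16 (adjusted p = 0.0526) was not.

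Markers of other cell types were measured in the same libraries, and 0 of those tested were called with all 6 libraries. Of 8 tested germinal centre B-cell markers 7 were positive (median 0.19), and 7 of all 12 listed had a higher mean FPKM with CXCL14. All 12 listed summed to 115 to 126 FPKM without and 137 to 175 FPKM with CXCL14. Log2 fold changes were 0.36 (SE 0.12) for Fas, a death receptor, and 0.63 (SE 0.21) for Neil1, a DNA glycosylase, both with groups apart. Basp1 had -0.30 (SE 0.29), with overlapping groups. Neil1 alone measured 68.2, 46.6 and 64.4 FPKM without and 75.8, 118 and 86.8 FPKM with CXCL14, a large part of the sums. Plasma cell markers were positive in 6 of 6 tested, with a median of 0.30, and the 7 listed summed to 202 to 245 FPKM without and 263 to 409 FPKM with CXCL14. No marker of these 2 lists was at 0 in any library. The 9 B-cell markers had 2 positive and a median of -0.05, or 5 positive and 0.03 with median-ratio scaling.

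Other lists differed between CXCL14 replicate 1 and the other two CXCL14 libraries. Neutrophil markers had a mean log2(FPKM + 1) of 2.57 in CXCL14 replicate 1 and of up to 5.39 in the others. They had 6 of 6 tested positive and a median of 2.48, and the 10 listed summed to 9.64 to 40.8 FPKM without and 34.8 to 378 FPKM with CXCL14, with Camp and Elane at 0 in some libraries. T and NK cell markers had 2 of 12 positive, a median of -0.48, and sums of 777 to 1010 and 497 to 935 FPKM. Luminal epithelial markers had 10 of 13 positive, with a median of 0.47. Fibroblast markers had 0 of 7 positive, a median of -1.02, and sums of 68.4 to 726 and 59.2 to 684 FPKM, and macrophage markers 1 of 8 positive, with a median of -0.83. Blood endothelial markers had 10 of 10 positive, with a median of 0.28, white adipocyte markers 7 of 8, with 0.18, red blood cell precursors 4 of 4, with 0.52, and basal epithelial markers 1 of 2, with 0.17. Without CXCL14 replicate 1 the medians were 3.42 for neutrophil, -0.68 for T and NK cell, -1.60 for macrophage, -2.14 for fibroblast, 0.70 for endothelial and 0.36 for germinal centre markers. That fit called 5 of 6 neutrophil, 4 of 13 luminal, 2 of 6 plasma cell and 1 of 8 germinal centre markers higher and 5 of 12 T and NK cell markers lower, and 0 of the other marker lists. Untreated replicate 3 also differed from the other untreated libraries in some of these lists. In untreated replicates 1, 2 and 3 the median FPKM of tested fibroblast markers was 117, 96.2 and 9.92. With CXCL14 it was 110, 7.82 and 9.82. Untreated medians were 32.2, 27.9 and 11.3 for macrophage and 7.87, 11.1 and 3.82 for luminal markers. B-cell markers were closer, at 91.9, 90.1 and 84.9, and endothelial markers set untreated replicate 1 apart, at 33.0, 58.5 and 62.1. The part of these cell types in the levels of the mitosis genes was not tested.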

How the data were processed

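RNA of 6 mammary gland samples was sequenced, 3 untreated and 3 given CXCL14, with 2 µg of RNA per library per the labels' protocols. The authors deposited FPKM values per gene symbol. Bowtie2 2.2.3, HISAT2 2, HTSeq 0.6.0 and the build mm8 are named in the submitters' processing notes. For gene lengths, filters and use of strand nothing is given in the sources used here, so values of overlapping, antisense or near-identical genes are uncertain.

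The 11516 genes at 1 FPKM or more in 3 or more libraries were tested on log2(FPKM + 1) with limma-trend (limma 3.58.1, R 4.3.3), with Benjamini-Hochberg adjustment over all of them and a call at an adjusted p under 0.05. Members not tested have FPKM values only. Whole reads were recovered from the FPKM steps for 17461 of 17464 genes (99.98%, tolerance 0.004 reads) and served for depth, for chi-square values and for voom as an alternative, which called 0 genes. At an unadjusted p under 0.05 limma-trend found 895 genes and voom 915. The code was tested on simulated data. Counting error covers counting only.

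Same-numbered libraries deviated with correlations of 0.69, -0.30 and 0.06, so numbers were not taken as pairs. Alternatives were median-ratio scaling, a pseudocount of 0.1, no filter, an FPKM of at least 5, voom, a replicate block and each library or number left out. All members could be named, and of each other list up to 3 genes with the smallest unadjusted p, and called genes where there were 3 or fewer. The members and lists were chosen with earlier results of these data known.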

Additional observations from a re-analysis of the deposited data

How the results depend on the processing

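With all 6 libraries, 0 mitosis genes and 0 genes overall were called under each alternative of scaling, pseudocount, filter, test and block that was run, and the median log2 fold change of the members was between 0.16 (no filter, 36 members) and 0.32 (FPKM of at least 5, 8 members). Leaving out libraries gave between 0 and 597 called genes, between 0 and 1 called members, and a median between 0.10 and 0.36. Further fits were added after seeing the data. Without CXCL14 replicate 1, median-ratio scaling called 296 genes (231 higher, 65 lower) and 2 members, Foxm1 (0.70) and Cdc20 (0.60), and voom on the recovered reads called 421 genes (190 higher, 231 lower) and 0 members. A replicate block left the median at 0.24 and 0 calls, with 5 members higher at an unadjusted p under 0.05 (16.7%, against 3.18% of genes tested) in place of 8. Signs near 0 changed: Nuf2 was 0.02 with median-ratio scaling and 0.03 with it and without CXCL14 replicate 1, and Plk1 was -0.09 with voom without that library. With libraries left out, log2 fold changes ran from -0.20 to 0.06 for Nuf2, -0.07 to 0.15 for Plk1, -0.17 to 0.24 for Ccnb2, 0.00 to 0.29 for Bub1b, -0.08 to 0.11 for Mad2l1, -0.02 to 0.41 for Cdca3, -0.04 to 0.28 for Ncapg, -0.25 to 0.02 for Ndc80, -0.18 to 0.06 for Kif20a, -0.01 to 0.41 for Ccnf and -0.58 to 0.10 for Basp1, a germinal centre marker. Without a change of sign, the range was 0.08 to 0.48 for Mki67, 0.01 to 0.43 for Kif11, 0.03 to 0.40 for Aurka and 0.07 to 0.50 for Birc5. The cause was not tested. Depth limits the low members, 9 of which had under 50 reads in a library.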
